A study of Homo sapiens with 8 samples.

Results

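The genes described are the ligands, receptors, coreceptors and antagonists of the Wnt pathway, with RNA sequencing of HS578T cells, an established line from a human breast carcinoma. They were taken by name from the protein-coding rows of the gene count table: the WNT, FZD, SFRP, DKK and RSPO families, LGR4 to LGR6, LRP5, LRP6, AXIN1, AXIN2, ZNRF3, RNF43, WIF1, NOTUM, PORCN, ROR1 and ROR2. The rule took 55 of the 60708 rows, 19984 of which are protein-coding, and used no measured value. Of these 55 genes, 33 passed the filter on low counts and were tested, and 22 were not.

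The cells were transfected with 25 µg of a plasmid that encodes green fluorescent protein (Mock) or the heat shock transcription factor HSF2 (HSF2oe). After a further 24 h they were given 24 h of assay medium alone (control) or of medium containing 10 ng/ml TGF-β1, a cytokine whose receptors activate SMAD transcription factors. This gave 4 groups of 2 libraries: Mock control, Mock TGF-β, HSF2oe control and HSF2oe TGF-β. Groups follow the sample titles, because the treatment field of the labels instead splits Mock from HSF2oe, with DMSO for all of the former and TGF-β1 for all of the latter. All 8 libraries come from 1 cell line and from transfected populations.

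Wnt proteins are secreted lipid-modified ligands that bind Frizzled receptors on neighbouring cells. With the coreceptor LRP5 or LRP6 they stabilise β-catenin, which then works with TCF and LEF factors on target genes. With ROR1 or ROR2 they act without β-catenin on cell shape, polarity and movement, a branch known in mesenchymal-type breast cancer cells for the ligands WNT5A and WNT5B. SFRP and DKK proteins are secreted and are grouped here as antagonists by family name, not by a measured activity. R-spondins, acting through LGR4 to LGR6, keep the ubiquitin ligases RNF43 and ZNRF3 from removing Frizzled receptors from the surface. AXIN1 and AXIN2 are scaffolds of the complex that degrades β-catenin, and AXIN2 is a widely used β-catenin target gene.

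Total counts were 17427645 to 34336107 per library, so that a count of 0 allows up to 0.0851 to 0.195 CPM (3 counts, counting error only). CPM is the count scaled to the library total times its TMM factor, which edgeR estimates from the bulk of genes. HSF2 was at 5.40 to 8.35 CPM in the 4 Mock libraries and at 936, 615, 780 and 489 CPM in the HSF2oe libraries, library 1 above library 2 in both treatments. All 8 genes of a SMAD target list rose with TGF-β in Mock and in HSF2oe cells. VIM, FN1 and AXL marked the mesenchymal line, and EPCAM was at most 0.128 CPM. Other luminal epithelial markers were expressed: KRT18 at 177.3 to 274.4 CPM, KRT8 at 15.63 to 26.05 and GATA3 at 7.572 to 15.14. The summed level of 9 luminal epithelial markers was 213 to 307 CPM. That of 6 blood markers was 2.21 to 4.04 CPM in Mock and 0.591 to 2.08 CPM in HSF2oe libraries, with CD3E, HBB and HBA1 at 0, and 5 endothelial markers summed to 3.54 to 6.16 CPM. The part of the lower blood marker sum in the HSF2oe differences was not tested. Libraries of 1 group are biological replicates per the design text. The labels do not say how they were separated, and p-values measure only the spread between these libraries. In bulk RNA, fewer cells that express a gene and less RNA per cell cannot be told apart.

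Levels between genes are compared as CPM divided by exon length in kb. The length counts all annotated exons of a gene, so the order of genes depends on it. On this scale WNT5A had the highest mean over all 8 libraries, 59.6 CPM per kb, with a range of 41.4 to 90.1. That rank comes from the TGF-β libraries, where WNT5A was at 63.2 to 90.1. In the controls it was at 41.4 to 47.8, beside 37.98 to 49.51 for the receptor FZD7, which was the higher of the pair in Mock control 1 and HSF2oe control 1. WNT5B, the ligand most like WNT5A, followed with 46.1 (29.6 to 68.1) and was below WNT5A in each of the 8 libraries. The receptors FZD7 (mean 41.3), FZD6 (36.1), FZD2 (30.4) and FZD8 (27.6), the coreceptor LRP5 (36.3), the ligand WNT7B (31.8) and the antagonist DKK1 (24.9) filled the next ranks. The ranges of these neighbours overlapped, so their order among themselves is not settled. The coreceptor LRP6 had a mean of 4.84 CPM per kb, with every library (3.88 to 6.81) below the lowest LRP5 value of 25.8. ROR1 (14.3) was above ROR2 (0.558), again with no overlap. The lowest levels among tested genes were those of RNF43 (0.171) and WNT2B (0.0713).

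Of the 22 genes not tested, 7 had no read in any library: FZD10, RSPO1, WIF1, WNT1, WNT3A, WNT6 and WNT8A. Another 8 had at most 4 counts in their highest library, and RSPO2 reached the highest count, 15. No R-spondin gene and neither DKK2 nor DKK4 was tested. The tested genes were 9 of 19 ligands, 8 of 10 Frizzled receptors, 4 of 4 coreceptors (LRP5, LRP6, ROR1 and ROR2), 5 of 10 secreted antagonists, 4 of 9 genes of the R-spondin axis, PORCN and both AXIN genes.

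**Figure D1:**
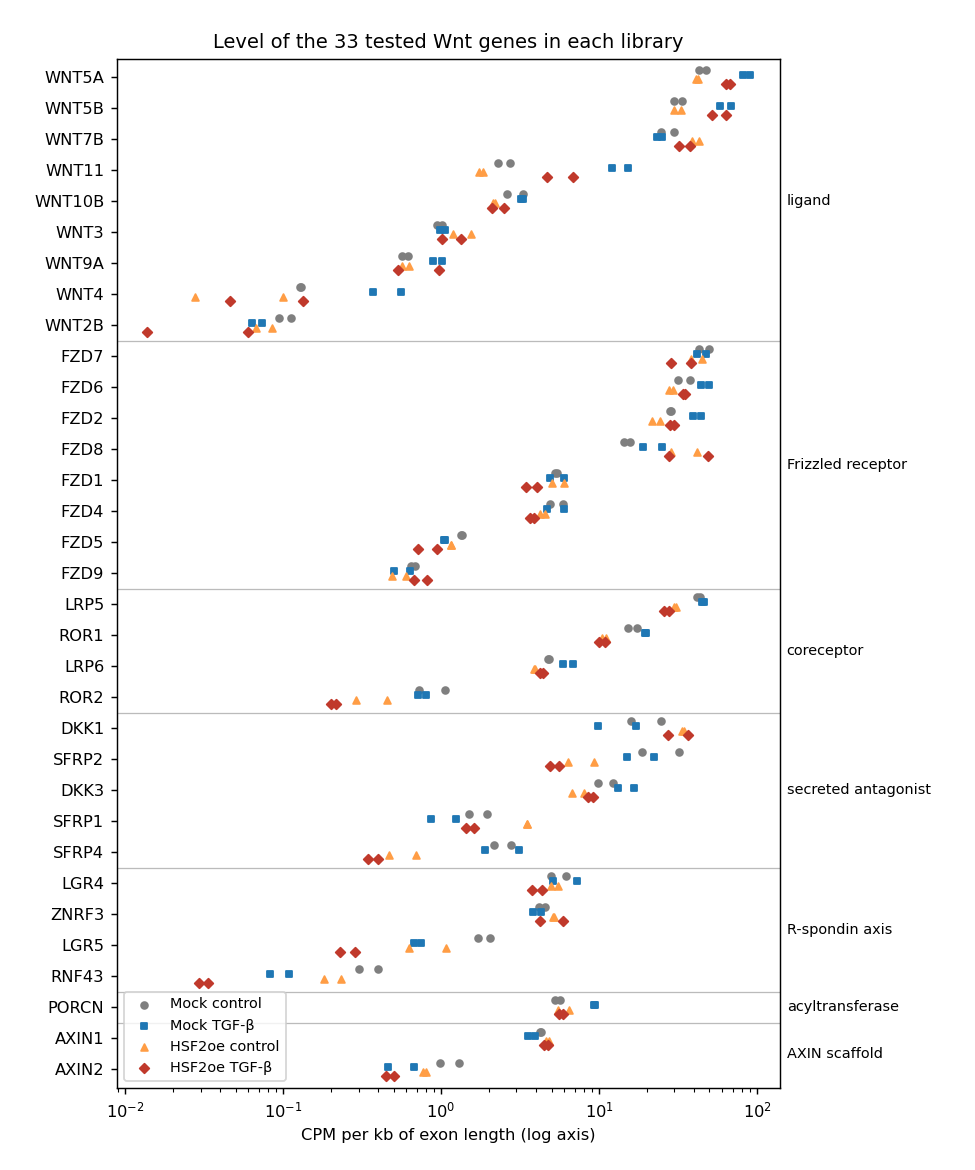
Level of each of the 33 tested Wnt genes in each library, in CPM per kb of exon length on a log axis, with genes grouped by role and 1 point per library. WNT5A and WNT5B are the highest ligands in the Mock and the HSF2oe TGF-β libraries, WNT7B lies above WNT5B in both HSF2oe controls, and the points of LGR5, SFRP4 and SFRP2 spread over several-fold ranges between groups.

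Differences were tested for all 16008 genes with enough counts in edgeR (quasi-likelihood F test, Benjamini-Hochberg adjusted), and a gene was called at an adjusted p under 0.05. In the text, ± after a log2 fold change is its standard error, and adjusted p means this edgeR value. With TGF-β in Mock cells 12 of the 33 Wnt genes were called (36.4%), 8 higher and 4 lower, where 13.8% of all genes were called (7.32% higher and 6.5% lower). With TGF-β in HSF2oe cells it was 7 (21.2%), 3 higher and 4 lower, against 8.26% of all genes (4.45% and 3.82%). HSF2oe against Mock without TGF-β gave 11 (33.3%), 4 higher and 7 lower, against 12.1% (4.88% and 7.22%). HSF2oe against Mock with TGF-β gave 22 (66.7%), 4 higher and 18 lower, against 21.5% (9.6% and 11.9%). The compared groups did not overlap in CPM for 21, 22, 27 and 28 of the 33 genes in this order, against 52.7%, 49.8%, 57.4% and 59.9% of all genes, so a lack of overlap alone is common here. The median log2 fold change of the 33 genes was 0.04, -0.08, -0.28 and -0.52, and that of all genes lay between -0.01 and 0. These 33 genes had to pass a filter on low counts, so neither counts nor medians speak for all 55.

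In all, 26 of the 33 were called at least once. The other 7 were FZD5, FZD9, WNT10B, WNT2B, WNT3, WNT9A and ZNRF3, with log2 fold changes from -0.96 to 0.69 and a lowest adjusted p of 0.0634. Counts of called Wnt genes moved with single libraries. With TGF-β in Mock they were 9 to 13. For HSF2oe without TGF-β they were 4 without Mock control 2, 5 without HSF2oe control 1 and at most 11, and for HSF2oe with TGF-β 14 without Mock TGF-β 2, 15 without HSF2oe TGF-β 1 and at most 21. Scaling by library totals alone moved the median of all genes by -0.27, -0.17, 0.09 and 0.19. Wnt calls then split into 6 higher and 9 lower, 3 and 11, 4 and 7, and 6 and 14, so the share of higher Wnt calls depends on the scaling. Over all genes the same scaling gave 608 higher and 3885 lower, 452 and 1593, 1432 and 807, and 3526 and 1073, which turns the balance in the HSF2oe comparisons.

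**Figure D2:**
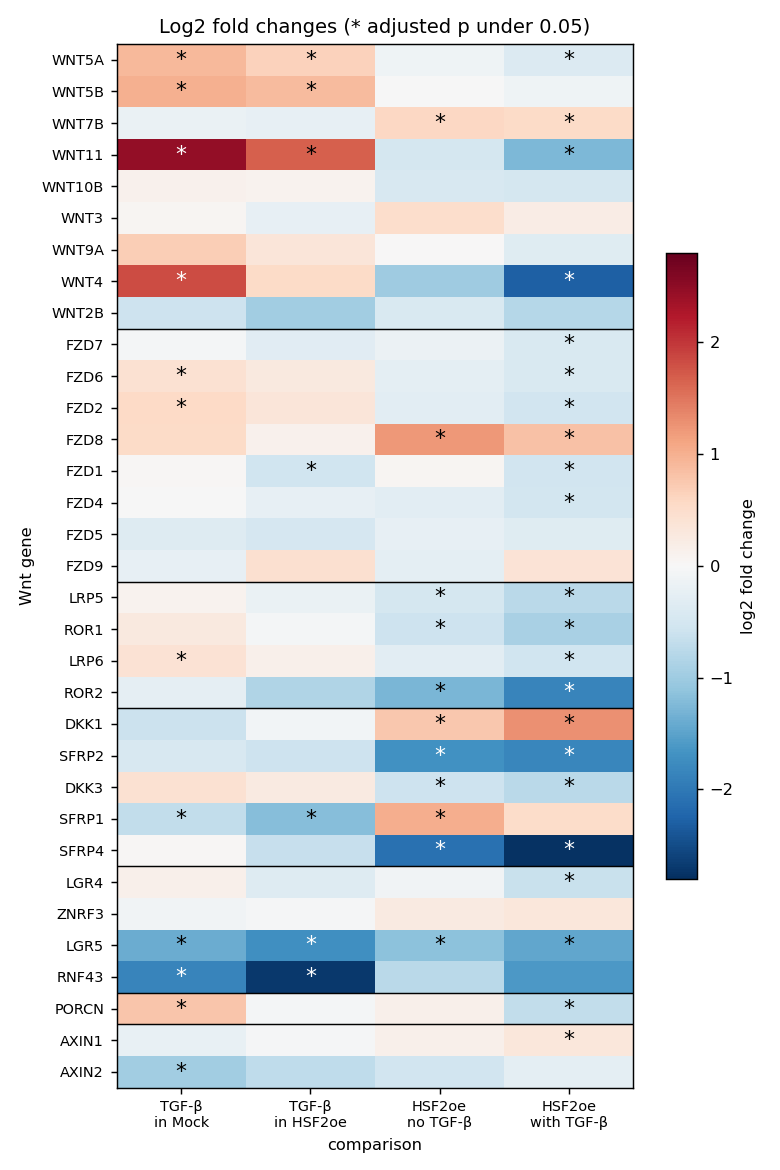
Log2 fold change of each tested Wnt gene (rows, grouped by role) in 4 comparisons (columns), with an asterisk at an edgeR adjusted p under 0.05. The column for HSF2oe with TGF-β holds 18 called decreases and 4 called increases, and the coreceptors LRP5, LRP6, ROR1 and ROR2 are all called lower in it.

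With TGF-β, several ligands were higher and LGR5 and RNF43, 2 of 4 tested genes of the R-spondin axis, were lower. Among the 9 tested ligands, 4 rose in Mock cells (WNT11, WNT5B, WNT5A and WNT4), 3 rose in HSF2oe cells and none fell. Both of these genes fell in Mock and in HSF2oe cells, as did the antagonist SFRP1. The calls shared by both TGF-β comparisons, which have no library in common, were LGR5, RNF43, SFRP1, WNT11, WNT5A and WNT5B, each in the same direction. These 6 are 50% of the 12 and 85.7% of the 7. How many of all genes were called in both comparisons was not counted, so these shares have no background beside them.

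WNT11 (chr11:76186325-76210736, minus strand, GRCh38) encodes a ligand that mostly acts without β-catenin. It was at 6.48 and 5.44 CPM in the Mock controls and at 28.8 and 36.1 in Mock cells with TGF-β. In HSF2oe cells it was at 4.36 and 4.09 without and at 11.1 and 16.1 with TGF-β. All 4 TGF-β libraries lay above all 4 controls, and the HSF2oe TGF-β libraries lay between the other groups. The log2 fold change was 2.45 ± 0.19 in Mock (adjusted p = 2.61e-06) and 1.68 ± 0.19 in HSF2oe cells (adjusted p = 1.09e-04).

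WNT5A (chr3:55465715-55490539, minus strand) was at 308 and 342 CPM in the Mock controls and at 583 and 644 in Mock cells with TGF-β. In HSF2oe cells it rose from 302 and 296 to 482 and 452. The groups did not overlap in either cell population. Log2 fold changes were 0.92 ± 0.10 (adjusted p = 5.78e-05) and 0.64 ± 0.10 (adjusted p = 0.00125). WNT5B (chr12:1529891-1647212, plus strand), its close relative, was at 142 and 126 CPM in the Mock controls, 289 and 248 in Mock cells with TGF-β, 139 and 127 in the HSF2oe controls and 271 and 221 in HSF2oe cells with TGF-β. It rose by 1.00 ± 0.12 (adjusted p = 1.15e-04) and 0.88 ± 0.12 (adjusted p = 4.81e-04), so that the sizes in both populations lay within their errors.

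WNT4, a ligand of mammary development, was near the limit of detection, with 0.599 and 0.595 CPM in the Mock controls and 2.60 and 1.72 in Mock cells with TGF-β. Its counts were 16 and 21 against 40 and 35. The call (log2 1.84 ± 0.56, adjusted p = 0.0437) was lost when any of the 4 Mock libraries was left out, with adjusted p from 0.0898 (Mock TGF-β 2) to 0.223 (Mock TGF-β 1). In HSF2oe cells it was at 0.128 and 0.465 CPM without and 0.622 and 0.213 with TGF-β, which overlap.

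PORCN (chrX:48508959-48520814, plus strand) encodes the acyltransferase that attaches the lipid Wnt ligands need for secretion. It was at 32.6 and 30.3 CPM in the Mock controls and 53.9 and 54.3 in Mock cells with TGF-β. In HSF2oe cells the values were 37.3 and 31.8 without and 34.5 and 32.3 with TGF-β. Only the Mock TGF-β libraries stood apart from the rest. PORCN rose in Mock by 0.78 ± 0.11 (adjusted p = 2.64e-04, and by 0.52 under library totals alone), and its log2 fold change in HSF2oe cells was -0.05 ± 0.11 (adjusted p = 0.862).

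Of 8 Frizzled receptors, FZD2 and FZD6 rose with TGF-β in Mock cells, and only FZD1 was called in HSF2oe cells, where it fell. FZD2 was at 107 and 106 CPM in the Mock controls and at 167 and 149 in Mock cells with TGF-β, without overlap (log2 0.57 ± 0.10, adjusted p = 0.00181, and 0.31 under library totals alone). FZD6 was at 128 and 154 CPM in the Mock controls and 179 and 201 with TGF-β, without overlap, and rose by 0.43 ± 0.11 (adjusted p = 0.0170), a call lost under library totals alone (adjusted p = 0.248) and when Mock control 1 (0.220) or Mock TGF-β 2 (0.166) was left out. FZD1 was at 41.6 and 34.9 CPM in the HSF2oe controls and 27.8 and 23.8 in HSF2oe cells with TGF-β (log2 -0.57 ± 0.13, adjusted p = 0.0135). Leaving out HSF2oe control 1 (0.158) or HSF2oe TGF-β 2 (0.133) ended that call. The coreceptor LRP6 was at 49.1 and 49.9 CPM in the Mock controls and 61.2 and 70.6 in Mock cells with TGF-β (log2 0.41 ± 0.10, adjusted p = 0.0123). Library totals alone (0.290, log2 0.15) ended this call, as did leaving out Mock control 1 (0.0956), Mock control 2 (0.0619) or Mock TGF-β 2 (0.159). LRP5, ROR1 and ROR2 were not called with TGF-β in either population.

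LGR5 (chr12:71439798-71586310, plus strand), an R-spondin receptor known as a marker of epithelial stem cells, was at 8.91 and 10.6 CPM in the Mock controls and 3.90 and 3.54 in Mock cells with TGF-β. In HSF2oe cells it was at 3.27 and 5.61 without and 1.49 and 1.19 with TGF-β. The Mock controls were the highest and the HSF2oe TGF-β libraries the lowest of the 4 groups. It fell with TGF-β by 1.40 ± 0.25 (adjusted p = 0.00189) and by 1.71 ± 0.28 (adjusted p = 0.00169) on the log2 scale.

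RNF43 (chr17:58353676-58417595, minus strand), a ligase that removes Frizzled receptors, had 51 and 89 counts in the Mock controls, 8 and 14 in Mock cells with TGF-β, 46 and 37 in the HSF2oe controls and 6 and 5 in HSF2oe cells with TGF-β. All TGF-β libraries lay below all controls. The log2 fold change was -1.86 ± 0.40 in Mock (adjusted p = 0.00713, and 0.0670 without Mock control 2) and -2.70 ± 0.46 in HSF2oe cells (adjusted p = 0.00253). Its value is uncertain, because 69.1% of its exonic bases are shared with other genes and the counting used no strand option. The antisense gene TSPOAP1-AS1 had 19 to 42 counts per library and was not called. A sharing gene on the same strand, RP5-1171I10.8, had 1 to 8 counts and was not tested. The related ligase ZNRF3 was at 26.8 to 41.1 CPM over all libraries and not called.

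AXIN2 (chr17:65528563-65561648, minus strand) was at 5.13 and 6.75 CPM in the Mock controls and at 2.41 and 3.54 in Mock cells with TGF-β. In HSF2oe cells the values were 4.20 and 4.03 without and 2.64 and 2.34 with TGF-β. Controls lay above TGF-β libraries in both populations. AXIN2 was called in Mock (log2 -0.98 ± 0.24, adjusted p = 0.0136) but not without Mock control 2 (0.121) or Mock TGF-β 1 (0.0997), and the value in HSF2oe cells was -0.72 ± 0.24 (adjusted p = 0.0877). Of its exonic bases 25.2% also belong to a same-strand gene with 0 counts. AXIN1 was not called with TGF-β.

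Among antagonists only SFRP1 was called with TGF-β. SFRP1 (chr8:41261962-41309473, minus strand), which binds Wnt ligands outside the cell, was at 7.08 and 9.19 CPM in the Mock controls, 4.10 and 5.90 in Mock cells with TGF-β, 16.5 and 16.6 in the HSF2oe controls and 7.65 and 6.77 in HSF2oe cells with TGF-β. The HSF2oe controls were the highest and the HSF2oe TGF-β libraries were near the Mock controls. It fell by 1.19 ± 0.18 in HSF2oe cells (adjusted p = 7.74e-04) and by 0.69 ± 0.20 in Mock cells (adjusted p = 0.0314). The Mock call was lost when Mock control 2 (0.222) or Mock TGF-β 1 (0.203) was left out and in a fit of only the libraries compared (0.0673). DKK1 had a log2 fold change of -0.60 ± 0.23 in Mock (adjusted p = 0.117). Leaving out Mock control 2 (-0.88, 0.0293) or Mock TGF-β 1 (-1.03, 0.0121) made it called, and it was -0.26 and -0.24 without the other library of each group.

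**Figure D3:**
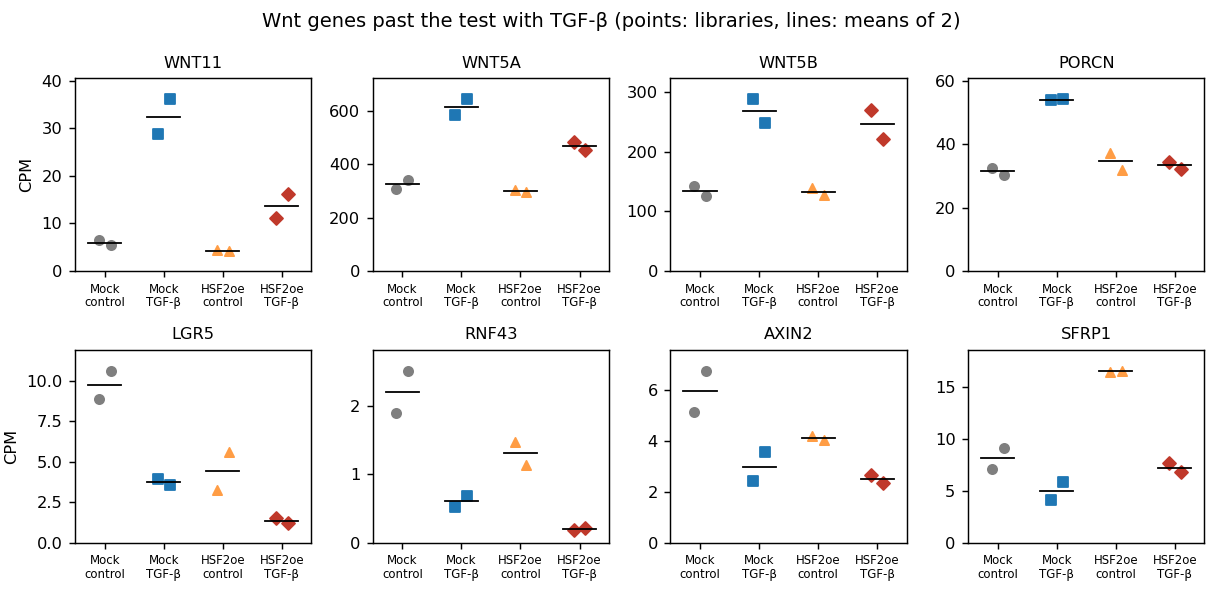
CPM of 8 Wnt genes called with TGF-β, 1 point per library, a line at the mean of 2 libraries and a separate linear axis from 0 for each gene. WNT11, WNT5A and WNT5B are higher in both TGF-β groups, LGR5 and RNF43 are lower in both, and PORCN is higher in Mock cells with TGF-β alone.

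In what follows, each change is HSF2oe against Mock, within control medium (without TGF-β) or within TGF-β medium (with it). Each shares libraries with the TGF-β comparisons above, so calls of the same gene in both kinds of comparison are not separate findings. SFRP4, SFRP2 and DKK3, grouped as antagonists, and the coreceptors LRP5, ROR1 and ROR2 were lower with and without TGF-β. DKK1, FZD8 and WNT7B were higher in both settings, and LGR5 was lower. These 10 shared calls, in comparisons with no common library, are 90.9% of the 11 without TGF-β and 45.5% of the 22 with it, and none went the opposite way. The same overlap was not counted over all genes, so it is not shown to be particular to the Wnt genes. The gene called without TGF-β alone was SFRP1.

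The promoter sequences of 4 of these genes are shown because they include 2 that were lower (SFRP2 and ROR2) and 2 that were higher (DKK1 and FZD8) in HSF2oe cells, picked once their values were known. Each is the 250 bases before the gene's start from RefSeq (GRCh38.p14), read in the direction of the gene. They lie at chr4:153789084-153789333 (SFRP2, minus strand), chr9:91950229-91950478 (ROR2, minus), chr10:52314031-52314280 (DKK1, plus) and chr10:35642297-35642546 (FZD8, minus). Capitals mark matches on either strand to the searched motifs GAANNTTC (a heat shock element core), CTTTGAT and CTTTGAA (TCF and LEF motifs), and CAGAC and GTCTAGAC (SMAD motifs).
SFRP2: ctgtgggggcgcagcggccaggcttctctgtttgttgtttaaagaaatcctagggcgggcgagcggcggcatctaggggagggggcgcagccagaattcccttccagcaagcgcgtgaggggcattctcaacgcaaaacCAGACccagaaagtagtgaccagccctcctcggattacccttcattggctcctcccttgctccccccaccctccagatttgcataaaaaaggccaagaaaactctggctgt
ROR2: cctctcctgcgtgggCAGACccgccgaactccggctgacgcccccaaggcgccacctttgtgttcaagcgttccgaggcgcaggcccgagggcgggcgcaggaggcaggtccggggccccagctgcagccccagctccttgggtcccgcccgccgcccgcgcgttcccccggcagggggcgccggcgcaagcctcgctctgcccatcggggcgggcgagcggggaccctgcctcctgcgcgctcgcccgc
DKK1: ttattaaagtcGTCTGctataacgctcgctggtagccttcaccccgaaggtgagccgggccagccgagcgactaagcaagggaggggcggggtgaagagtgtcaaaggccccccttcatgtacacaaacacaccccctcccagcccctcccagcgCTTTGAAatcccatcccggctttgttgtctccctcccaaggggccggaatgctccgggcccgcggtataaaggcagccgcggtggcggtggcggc
FZD8: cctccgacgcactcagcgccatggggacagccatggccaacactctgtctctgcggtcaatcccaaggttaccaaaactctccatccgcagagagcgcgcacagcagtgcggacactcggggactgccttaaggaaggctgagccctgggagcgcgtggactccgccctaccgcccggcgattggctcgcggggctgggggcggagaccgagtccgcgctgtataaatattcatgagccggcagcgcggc

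None of the 4 sequences holds GAANNTTC. Over 44 windows of 37 Wnt genes with an entry, 1 window (WNT8A, a gene with no reads) held it, or 2.27%, against 5.78% of 35097 windows of all genes. DKK1 held CTTTGAA at position -95 from its start, the only such match among the Wnt windows, against 3.80% of all windows. CTTTGAT and GTCTAGAC were in none of the Wnt windows and in 2.26% and 0.182% of all. CAGAC or its reverse complement was in 18 Wnt windows (40.9%) and in 38% of all, among them SFRP2, ROR2 and DKK1. A match is a run of letters and not a measured binding site.

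SFRP4 (chr7:37905932-38025695, minus strand) and SFRP2 (chr4:153780591-153789083, minus strand) encode secreted Frizzled-related proteins. SFRP4 was at 7.60 and 9.75 CPM in the Mock controls, 6.64 and 11.0 in Mock cells with TGF-β, 1.64 and 2.45 in the HSF2oe controls and 1.21 and 1.41 in HSF2oe cells with TGF-β. SFRP2 was at 37.1 and 64.4, 30.0 and 44.4, 12.7 and 18.5, and 9.83 and 11.2 CPM in the same order. Every HSF2oe library lay below every Mock library for both genes, although the Mock libraries of a group differed from each other. SFRP4 fell by 2.09 ± 0.27 without TGF-β (adjusted p = 6.64e-04) and by 2.77 ± 0.30 with it (adjusted p = 8.89e-05). SFRP2 fell by 1.70 ± 0.24 (adjusted p = 0.00124) and by 1.83 ± 0.26 (adjusted p = 4.52e-04).

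DKK3, a Dickkopf family member, was at 117 and 147 CPM in the Mock controls, 157 and 198 in Mock cells with TGF-β, 80.1 and 96.2 in the HSF2oe controls and 102 and 110 in HSF2oe cells with TGF-β. Within each treatment the HSF2oe libraries were lower without overlap. It fell by 0.58 ± 0.14 without TGF-β (adjusted p = 0.0160, and 0.175 without Mock control 2 or 0.181 without HSF2oe control 1) and by 0.75 ± 0.14 with it (adjusted p = 0.00230). Of its exonic bases 47.5% are shared with the antisense gene USP47, which had 836 to 1838 counts and was not called. SFRP1, given above, and DKK1, given next, were the antagonists that rose without TGF-β. The SFRP1 value was 1.02 ± 0.17 (log2, adjusted p = 0.00284) without TGF-β and 0.51 ± 0.20 (adjusted p = 0.0819) with it.

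DKK1 (chr10:52314281-52318042, plus strand), which blocks LRP5 and LRP6, was at 54.4 and 35.4 CPM in the Mock controls, 37.8 and 21.9 in Mock cells with TGF-β, 76.8 and 74.2 in the HSF2oe controls and 81.6 and 61.0 in HSF2oe cells with TGF-β. Every HSF2oe library was above every Mock library. With TGF-β it rose by 1.27 ± 0.23 (adjusted p = 0.00210). Without TGF-β it rose by 0.75 ± 0.22 (adjusted p = 0.0424). That call was lost without Mock control 2 (0.317, log2 0.47), HSF2oe control 1 (0.187) or HSF2oe control 2 (0.0934), in DESeq2 (0.188) and in limma-trend (0.0519).

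The coreceptors moved in 1 direction. ROR1 (chr1:63774017-64181498, plus strand), a receptor tyrosine kinase for WNT5A, was at 116 and 102 CPM in the Mock controls, 134 and 131 in Mock cells with TGF-β, 70.6 and 74.9 in the HSF2oe controls and 67.2 and 73.1 in HSF2oe cells with TGF-β. Its relative ROR2 (chr9:91563091-91950228, minus strand) was at 4.27 and 6.27, 4.69 and 4.23, 1.70 and 2.66, and 1.18 and 1.28 CPM. All HSF2oe libraries lay below all Mock libraries for both. ROR1 fell by 0.59 ± 0.10 without (adjusted p = 0.00285) and by 0.91 ± 0.10 with TGF-β (adjusted p = 9.73e-05). ROR2 fell by 1.27 ± 0.26 (adjusted p = 0.00850) and by 1.86 ± 0.30 (adjusted p = 0.00110). The first of these ROR2 calls was lost without Mock control 2 (0.124) and without HSF2oe control 1 (0.109).

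LRP5 (chr11:68312591-68449275, plus strand), the more abundant β-catenin branch coreceptor, was at 259 and 267 CPM in the Mock controls, 277 and 286 in Mock cells with TGF-β, 191 and 185 in the HSF2oe controls and 172 and 159.7 in HSF2oe cells with TGF-β. Again all HSF2oe libraries were the lower ones. LRP5 fell by 0.48 ± 0.09 (adjusted p = 0.00533, and 0.0565 without Mock control 2) and by 0.76 ± 0.09 (adjusted p = 1.88e-04). LRP6 (chr12:12116025-12267044, minus strand) was at 40.3 and 40.9 CPM in the HSF2oe controls and at 43.7 and 45.9 in HSF2oe cells with TGF-β, below the Mock libraries given above. It was called with TGF-β (log2 -0.56 ± 0.10, adjusted p = 0.00181, and -0.37 under library totals alone) and not without it (-0.29 ± 0.10, adjusted p = 0.0757).

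FZD8 (chr10:35638247-35642296, minus strand) was the Frizzled receptor that was higher in HSF2oe cells. It was at 64.0 and 58.6 CPM in the Mock controls, 101 and 76.7 in Mock cells with TGF-β, 169 and 116 in the HSF2oe controls and 198 and 113 in HSF2oe cells with TGF-β. The HSF2oe libraries lay above the Mock libraries. FZD8 was higher in library 1 than in library 2 of every group, by the most in the HSF2oe groups. HSF2 had this order in the HSF2oe groups and the Mock controls but not in Mock cells with TGF-β (5.40 and 5.75 CPM). The part of the HSF2 level in the FZD8 difference was not tested. FZD8 rose by 1.22 ± 0.23 without TGF-β (adjusted p = 0.00501) and by 0.81 ± 0.23 with it (adjusted p = 0.0222). The calls were lost without Mock control 2 (0.0520) or HSF2oe control 1 (0.0686), and without Mock TGF-β 2 (0.172) or HSF2oe TGF-β 1 (0.279, log2 0.36), the second also in DESeq2 (0.0996).

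Of the other tested Frizzled receptors, FZD5 and FZD9 were not called. FZD1, FZD2, FZD4, FZD6 and FZD7 were called only with TGF-β, where they fell by 0.42 to 0.55 on the log2 scale. FZD2 was at 81.5 and 91.3 CPM in the HSF2oe controls and 112 and 105.5 in HSF2oe cells with TGF-β, the latter below the Mock TGF-β values given above (log2 -0.53 ± 0.10, adjusted p = 0.00252, and -0.34 under library totals alone). FZD7 was at 218 and 191 CPM in Mock cells with TGF-β and 174 and 130.2 in HSF2oe cells with TGF-β (log2 -0.42 ± 0.14, adjusted p = 0.0466), and 9 of 16 alternatives lost the call, the largest adjusted p being 0.340, without HSF2oe TGF-β 2. FZD1 (-0.55 ± 0.13, adjusted p = 0.00992, and -0.35 under library totals alone) lost it without Mock TGF-β 2 (0.127) and HSF2oe TGF-β 2 (0.0760). FZD6, at 143 and 139 CPM in HSF2oe TGF-β libraries (-0.43 ± 0.11, adjusted p = 0.0134), lost it under library totals alone (0.110), without either HSF2oe TGF-β library (0.0692 and 0.0678) and without Mock TGF-β 2 (0.129).

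FZD4 was at 34.6 and 44.3 CPM in Mock cells with TGF-β and at 26.8 and 28.5 in HSF2oe cells with TGF-β (log2 -0.52 ± 0.13, adjusted p = 0.0146). The call was lost without Mock TGF-β 2 (0.190), without HSF2oe TGF-β 1 (0.109) and under library totals alone (0.0747). Of its exonic bases 18.9% are shared with the antisense gene PRSS23, which had 16260 to 29876 counts and fell by 0.53 in the same comparison (adjusted p = 0.00423). The part of these reads in the FZD4 value was not tested.

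Among ligands WNT7B was the 1 that rose. WNT7B (chr22:45920366-45977162, minus strand), which can signal through β-catenin, was at 151 and 126 CPM in the Mock controls, 126 and 118 in Mock cells with TGF-β, 218 and 197 in the HSF2oe controls and 193 and 164 in HSF2oe cells with TGF-β. No HSF2oe library was as low as the highest Mock library. It rose by 0.59 ± 0.12 without TGF-β (adjusted p = 0.00679, and 0.0957 without Mock control 2 or 0.0796 without HSF2oe control 1) and by 0.55 ± 0.12 with it (adjusted p = 0.00541, and 0.0594 without Mock TGF-β 2 or 0.0540 without HSF2oe TGF-β 1).

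With TGF-β, WNT11, WNT5A and WNT4 were lower in HSF2oe than in Mock cells. WNT11 fell by 1.27 ± 0.17 (adjusted p = 3.90e-04). WNT5A fell by 0.39 ± 0.10 (adjusted p = 0.0143), a call lost without Mock TGF-β 2 (0.138), without HSF2oe TGF-β 1 (0.0540) or 2 (0.0885), and under library totals alone (0.149). WNT4 fell by 2.29 ± 0.58 (adjusted p = 0.0141), on the low counts given above, and lost the call without Mock TGF-β 1 (0.0830) and HSF2oe TGF-β 2 (0.0794). PORCN fell by 0.70 ± 0.11 (adjusted p = 7.33e-04). WNT5B was not called between HSF2oe and Mock cells.

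In the R-spondin axis LGR5 fell by 1.14 ± 0.23 without TGF-β (adjusted p = 0.00766) and by 1.45 ± 0.30 with it (adjusted p = 0.00434). The first of these calls was lost without Mock control 2 (0.0850) and HSF2oe control 1 (0.0898). LGR4, the more abundant receptor of this family here, was at 32.7 and 45.8 CPM in Mock cells with TGF-β and at 23.9 and 27.7 in HSF2oe cells with TGF-β (log2 -0.61 ± 0.16, adjusted p = 0.0143). That call was lost without Mock TGF-β 2 (0.205, log2 -0.34) and without HSF2oe TGF-β 1 (0.127). In TGF-β medium AXIN1 was at 29.6 and 26.6 CPM in Mock and at 33.7 and 35.8 in HSF2oe cells, without overlap, and was higher in HSF2oe cells by 0.31 ± 0.10 (adjusted p = 0.0481, and 0.50 under library totals alone). 12 of 16 alternatives lost this call, each of the 8 left-out libraries among them, with an adjusted p of up to 0.295 without Mock TGF-β 2. AXIN2 was not called between HSF2oe and Mock cells.

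**Figure D4:**
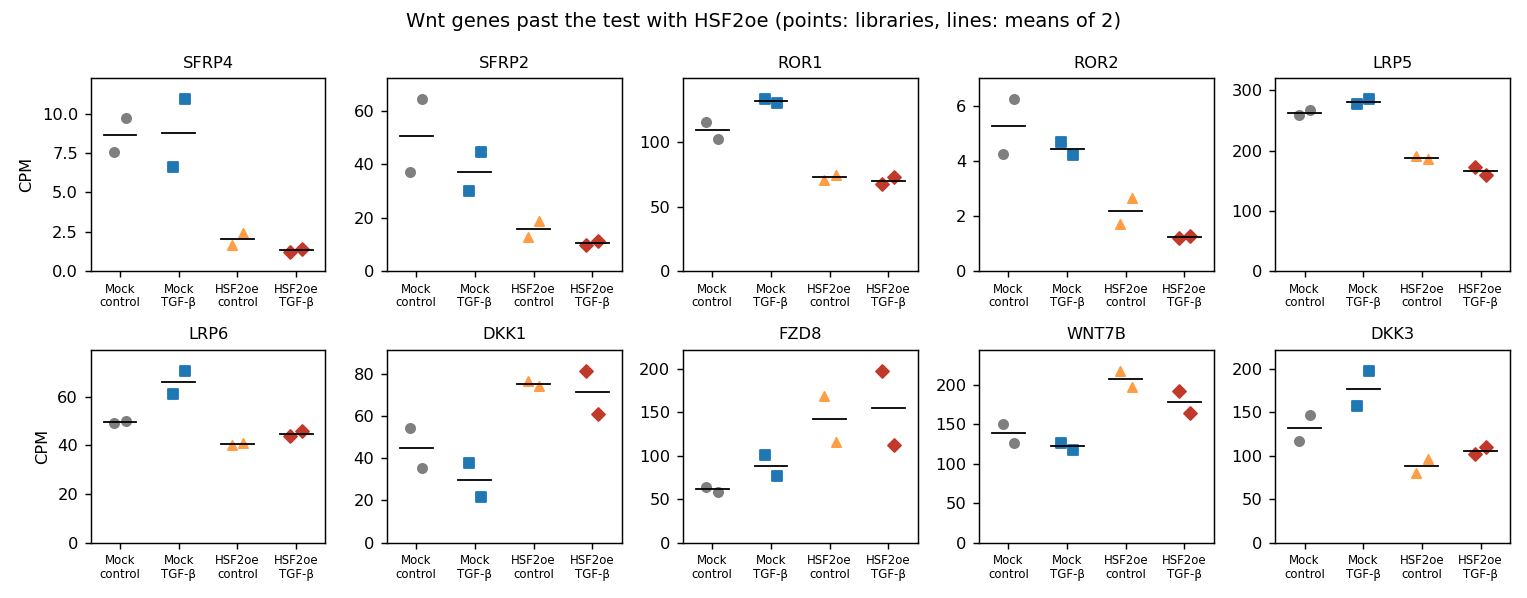
CPM of 10 Wnt genes called between HSF2oe and Mock cells, 1 point per library, a line at the mean of 2 libraries and a separate linear axis from 0 for each gene. SFRP4, SFRP2, ROR1, ROR2 and LRP5 are lower and DKK1, FZD8 and WNT7B higher in the HSF2oe libraries at both treatments.

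Whether the response to TGF-β differed between HSF2oe and Mock cells was tested by the interaction term. No Wnt gene was called, and 0% of all genes were. At an unadjusted p under 0.05 there were 5 Wnt genes of 33, and 977 of all genes, or 6.10%. By DESeq2 23 of all genes were called (664 unadjusted) and by limma-trend 0 (849 unadjusted). The 5 Wnt genes had negative differences. PORCN had the smallest p, with a difference of -0.83 ± 0.15 and an adjusted p of 0.240, and it was called by DESeq2 (0.0180), without the filter on low counts (0.00402) and with a term for the replicate number (0.00445). The others were WNT11 (-0.78 ± 0.27), FZD1 (-0.61 ± 0.18), LGR4 (-0.51 ± 0.22) and ROR1 (-0.33 ± 0.14), with adjusted p from 0.664 to 0.805. A gene called in 1 cell population and not in the other is therefore not shown to differ between them.

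The makeup of the expressed ligands also moved. The summed level of all 19 ligands, untested ones included, was 114 and 109.6 CPM per kb in the Mock controls, 192.5 and 193 in Mock cells with TGF-β, 124 and 116 in the HSF2oe controls and 179 and 158 in HSF2oe cells with TGF-β. WNT5A made up 34.0% to 46.7% and WNT5B 25.8% to 35.7% of this sum over all libraries. WNT7B made up 26.1% and 22.6% in the Mock controls, 12.9% and 12% in Mock cells with TGF-β, 34.5% and 33.4% in the HSF2oe controls and 21.2% and 20.4% in HSF2oe cells with TGF-β. WNT7B itself was not called with TGF-β, so that its smaller share there stands beside the rise of WNT5A and WNT5B.

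Among all 10 Frizzled receptors FZD8 made up 11.5%, 10.6%, 14.5% and 11.6% of the summed level in the 4 Mock libraries and 28.2%, 21.8%, 30.4% and 21.9% in the HSF2oe libraries, while the sum ran from 127 to 172 CPM per kb over all 8. Among all 10 antagonists DKK1 made up 18.5% to 43.2% in Mock and 60.7% to 70.3% in HSF2oe libraries, and SFRP2 31.2% to 49.4% and 9.42% to 16.9%. The antagonist sum was 44.2 to 65.3 CPM per kb, with Mock and HSF2oe libraries overlapping. The shares depend on the exon length used, which was 11958 bases for DKK3, 47.5% of them shared with USP47, and 2221 for DKK1. In CPM without this division DKK3 was above DKK1 in all 8 libraries. These shares are descriptions of the libraries and were not tested.

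**Figure D5:**
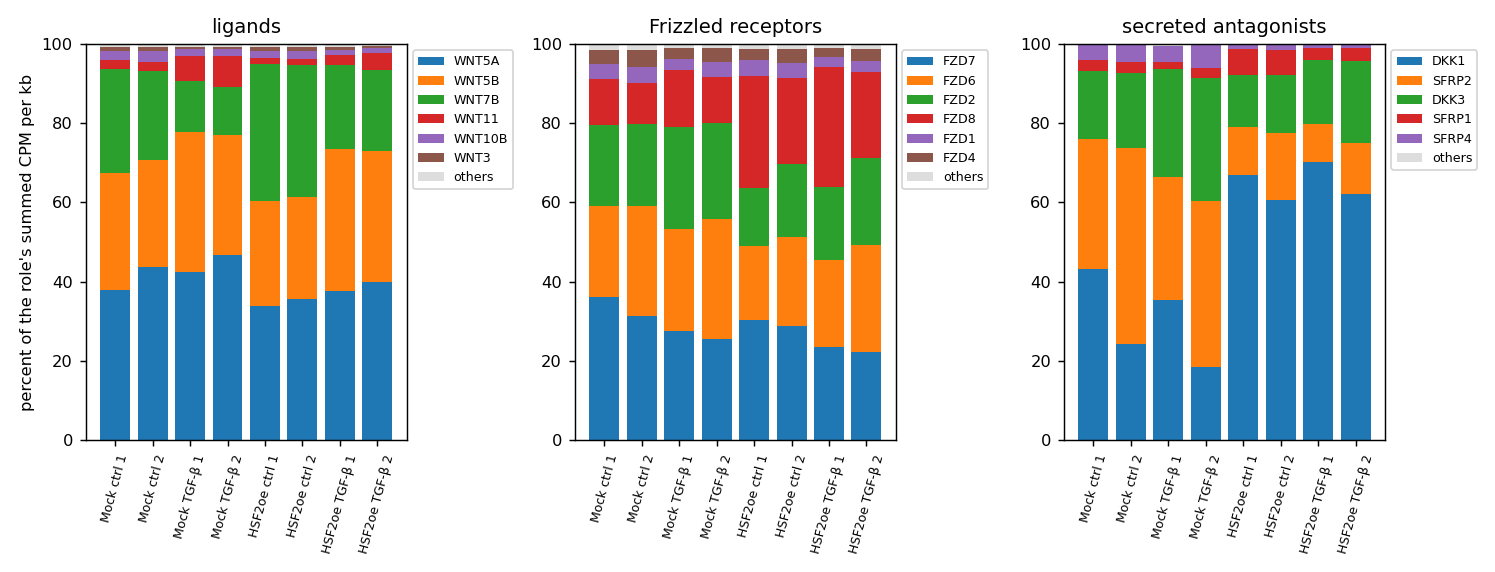
Share of each gene in the summed CPM per kb of all 19 ligands, 10 Frizzled receptors and 10 secreted antagonists, untested genes included, 1 bar per library. DKK1 takes 60.7% to 70.3% of the antagonist sum in HSF2oe libraries and at most 43.2% in Mock libraries, and FZD8 a larger share of the Frizzled sum in HSF2oe libraries. The shares depend on the exon lengths used, and in CPM without them DKK3 is above DKK1 in every library.

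Other genes of the pathway were read from 4 lists of named genes. The list of feedback and target genes shares LEF1 and TCF7 with the β-catenin list and APCDD1 with the accessory list. Calls of these genes count in each list, so the list counts are not separate. Only members whose call held under every alternative run are named below, picked once their values were known, so they look steadier than the lists. Of 16 tested feedback and target genes, 5 rose and 2 fell with TGF-β in Mock, and 3 rose and 4 fell in HSF2oe cells. HSF2oe cells had 4 higher and 4 lower than Mock without TGF-β, and 5 higher and 7 lower with it. In this order 43.8%, 43.8%, 50% and 75% of the list were called, against 13.8%, 8.26%, 12.1% and 21.5% of all genes. The last count, 12 in all, was 5 without Mock TGF-β 2 and 6 without HSF2oe TGF-β 1. The count of 8 without TGF-β was 3 without Mock control 2 or HSF2oe control 1.

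EPHB2, an ephrin receptor, rose with TGF-β by 1.25 ± 0.11 in Mock (adjusted p = 8.35e-06) and by 0.90 ± 0.11 in HSF2oe cells. SOX4, a transcription factor that TGF-β also regulates, rose by 1.10 ± 0.16 and 1.60 ± 0.16. CCND1, a cyclin of G1, was higher in HSF2oe cells by 0.82 ± 0.10 in both settings, and the repressor TBX3 by 0.77 ± 0.12 without and 0.77 ± 0.13 with TGF-β. FOSL1, an AP-1 subunit, was at 207 and 146 CPM in the Mock controls, 89.8 and 61.5 in Mock cells with TGF-β, 415 and 356 in the HSF2oe controls and 235 and 181 in HSF2oe cells with TGF-β. It fell with TGF-β in Mock by 1.23 ± 0.19 and was higher in HSF2oe cells by 1.13 ± 0.19 and 1.46 ± 0.19. NKD1, a feedback inhibitor of Dishevelled, was at 1.61 and 2.15, 5.92 and 4.57, 0.898 and 1.05, and 1.40 and 1.83 CPM in the same order. It rose with TGF-β in Mock by 1.46 ± 0.28 (adjusted p = 0.00309), opposite to AXIN2, and was lower in HSF2oe cells with TGF-β (log2 -1.70 ± 0.29, adjusted p = 0.00136). These comparisons share the Mock TGF-β libraries, where NKD1 was highest, so they are not separate findings.

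In the list of planar cell polarity and other β-catenin independent genes, 14 were tested. With TGF-β 5 rose in Mock and 2 in HSF2oe cells, and none fell. Between HSF2oe and Mock cells 1 was higher and 4 lower without TGF-β, and 7 were lower and none higher with it. These are 35.7%, 14.3%, 35.7% and 50% of the list, against 13.8%, 8.26%, 12.1% and 21.5% of all genes. Without single libraries the Mock TGF-β count was 2 to 6 (2 without Mock TGF-β 2, 3 without Mock control 1), the count without TGF-β was 0 to 6 (0 without Mock control 2 or HSF2oe control 1, 3 without HSF2oe control 2), and the count with TGF-β was 4 to 7 (4 without Mock TGF-β 2). The count of 2 in HSF2oe cells was 1 when either Mock control or any HSF2oe library was left out. The atypical cadherin CELSR1 rose with TGF-β in Mock by 1.08 ± 0.12 (adjusted p = 5.81e-05) and was lower in HSF2oe cells with TGF-β (log2 -0.79 ± 0.12). Both values use the Mock TGF-β libraries, where CELSR1 was at 26.9 and 30.7 CPM, against 12.1 to 17.6 in the others. PRICKLE2, a polarity scaffold, rose with TGF-β by 0.71 ± 0.12 in Mock (0.44 under library totals alone) and by 0.78 ± 0.12 in HSF2oe cells. PTK7, a pseudokinase receptor, was at 354 and 408 CPM in Mock cells with TGF-β and 234 and 216 in HSF2oe cells with TGF-β (log2 -0.76 ± 0.10). DAAM2, a formin that Dishevelled binds, had -1.19 ± 0.21 in that comparison.

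Of 29 tested genes of the cytoplasmic and nuclear β-catenin pathway, 4 rose and 2 fell with TGF-β in Mock, 1 and 1 in HSF2oe cells, and 1 and 1 and then 2 and 3 between HSF2oe and Mock cells without and with TGF-β. These shares, 20.7%, 6.9%, 6.9% and 17.2%, stand against 13.8%, 8.26%, 12.1% and 21.5% of all genes. The count of 6 was 2 when Mock control 1, Mock control 2 or Mock TGF-β 1 was left out, and the count of 5 was 1 when Mock TGF-β 2 or HSF2oe TGF-β 1 was left out and 3 for Mock TGF-β 1. Of the counts of 2, that with TGF-β in HSF2oe cells was 1 when either HSF2oe control was left out, and that of HSF2oe against Mock without TGF-β was 1 when any library but the HSF2oe TGF-β ones was left out. TLE1, a corepressor of TCF factors, fell with TGF-β in Mock by 0.81 ± 0.13 and was higher in HSF2oe cells with TGF-β by 0.90 ± 0.13 (adjusted p = 4.13e-04). These comparisons share the Mock TGF-β libraries, where TLE1 was lowest at 18.0 and 15.1 CPM, against 28.4 to 38.7 in the other 6. TCF7L1, a TCF factor that often represses, was lower in HSF2oe cells without TGF-β (-0.88 ± 0.15, adjusted p = 0.00285).

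Of 9 tested genes of secretion and surface accessory proteins, 2 rose and 1 fell with TGF-β in Mock, 1 and 1 in HSF2oe cells, and 3 were lower and none higher in HSF2oe than in Mock cells in both settings. Of the list 33.3%, 22.2%, 33.3% and 33.3% were called, and of all genes 13.8%, 8.26%, 12.1% and 21.5%. The count of 3 for Mock was 1 when Mock control 1 or Mock TGF-β 2 was left out. In HSF2oe cells the count of 2 was 1 when any of their 4 libraries was left out. For HSF2oe against Mock, the count of 3 without TGF-β was 0 when Mock control 2 or HSF2oe control 1 was left out, and the count of 3 with it was 1 when Mock TGF-β 2 was left out. GPC4, a cell surface glypican, was at 34.3 and 45.4 CPM in Mock cells with TGF-β and 11.2 and 16.7 in HSF2oe cells with TGF-β, without overlap (log2 -1.53 ± 0.22, adjusted p = 5.62e-04).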

How the data were processed

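RNA sequencing counts of 8 libraries were analysed. Per the file headers, the authors made the deposited counts with featureCounts 2.0.1 on read pairs against GENCODE release 38, with no strand option. The submitters' processing notes name STAR 2.7.9a, Subread 2.0.1, edgeR 3.34.1 and GRCh38. A further deposited table holds log2 CPM of 13169 genes, which lay within 0.0226 of TMM log2 CPM computed here with a prior count of 2 and served as an alternative.

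Counts were filtered with filterByExpr by group, scaled with TMM and tested in edgeR 4.0.16 (R 4.3.3) by a quasi-likelihood model with 1 mean per group over all 8 libraries. The fit had 4 residual and 9.21 prior degrees of freedom and a common biological variation of 9.91%. Prior degrees of freedom stand for spread that each gene borrows from the other genes. All tests were 2-sided and adjusted by Benjamini-Hochberg over 16008 genes. A standard error is |log2 fold change| over the square root of F. The code was tested on simulated data. Chi-square over its degrees of freedom was 12.5 to 26.8 between libraries of 1 group, so none was another merely sequenced again. The value does not show whether they came from separate cultures or transfections. Values by library are given for each Wnt gene called in any comparison and for AXIN2, LGR5, WNT5A, WNT5B, DKK1, LRP5, LRP6 and PORCN. For some genes they are given as ranges or for some groups only. Other pathway genes were to be the 4 with the smallest p per list and comparison, narrowed as the text says. Alternatives were DESeq2 size factors, library totals alone, no filter, a stricter filter, DESeq2 1.42.0, limma-trend (limma 3.58.1), a replicate term, only the libraries compared, and leaving out each library. The Wnt genes, lists and tests were chosen with earlier results of these data known.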

Additional observations from a re-analysis of the deposited data

How the results depend on the processing

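Over the 4 comparisons and the interaction, 28 of 52 Wnt calls held under every alternative that tested them, and none turned its direction while called. The numbers of all genes called were 2212, 1323, 1937, 3449 and 0 (TGF-β in Mock, TGF-β in HSF2oe, HSF2oe without and with TGF-β, interaction). Under library totals alone the first counts were 4493 (608 higher and 3885 lower, against 1172 and 1040) and 2045 (452 and 1593, against 712 and 611). For HSF2oe the balance turned from lower to higher calls: 1432 higher and 807 lower without TGF-β (against 781 and 1156) and 3526 and 1073 with it (against 1537 and 1912). With a replicate block they were 3350, 2366, 3614 and 4900, and 78 for the interaction. The interaction had 23 calls by DESeq2 and 83 with no filter. Wnt calls for TGF-β in HSF2oe cells were 14 under library totals alone and 15 with the replicate block, and for the interaction 1 under DESeq2, no filter and the block. The cause of these moves was not tested.

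With single libraries left out, the numbers of all genes called were 1143 to 2266, 673 to 1334, 368 to 1993, 1509 to 3331 and 0, and those of Wnt genes 9 to 13, 6 to 8, 4 to 11, 14 to 21 and 0. A group left with 1 library borrows the spread of the others. Replicate numbers were not shown to pair the libraries: deviations correlated at 0.0498 to 0.163 between groups, so the block values, 17, 15, 15, 25 and 1 Wnt calls, appear here. With 2 libraries per group, few residual degrees of freedom limit the precision, and low genes such as WNT4 and RNF43 rest on few counts.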
